A study of Mus musculus with 2 samples.

Results

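The genes described here encode chromatin remodellers, histone modifiers and the enzymes of DNA methylation. They were taken from the RefSeq GRCm38 gene table as the protein-coding genes whose symbols begin with Kdm, Kmt, Setd, Hdac, Sirt, Arid, Smarc, Chd, Brd, Baz, Tet or Dnmt in the form of those gene families. The rule found 107 genes, of which 106 lie on chromosomes 1 to 19 and X, where peaks were listed, out of 21523 protein-coding genes there. The exception is Kdm5d on chromosome Y, which carries no listed peak and was not counted. Symbols alone decided membership, so Brd3os and Brd8dc are included although neither is named as a BRD family protein.

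The data are a list of anti-FLAG chromatin immunoprecipitation sequencing (ChIP-seq) peaks for tagged HLF (hepatic leukemia factor), a PAR bZIP transcription factor. The cells were Lin-Sca-1+c-Kit+, a mouse population rich in blood stem cells and progenitors. They came from C57BL/6 animals aged 8 to 10 weeks, with blood given as the tissue. They were transduced with a MigR1 retrovirus that carries 3xFLAG-tagged HLF, or with the empty vector, and grown for 5 days with SCF (50 ng/ml), IL-7 and Flt3L (10 ng/ml each) and IL-3 (5 ng/ml), and chromatin was recovered with an anti-FLAG antibody. HLF was thus supplied from a viral vector in cultured cells, and the endogenous protein was not the target of the antibody. The peak list of the FLAG-HLF library (n = 1) was used, with 3153 intervals of 400 bp on mm10. Peaks of the empty-vector library (n = 1) were not used here, so no peak could be set against the background of the antibody. A peak list holds no expression values, and the identity of the cells could not be checked from it. Depth is unknown, since the list gives no read counts or peak heights.

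Chromatin regulators set how readily DNA can be reached. Remodellers of the SMARC (BAF and ISWI), CHD and related families use ATP to slide or evict nucleosomes, and ARID, BAZ and BRD proteins help to target them or read acetylated histones. Many KMT and SETD proteins place methyl groups on histone lysines and KDM proteins remove them. HDAC proteins and sirtuins remove acetyl groups, and DNMT and TET enzymes add and oxidise DNA methylation. Several of these genes, among them Tet2, Dnmt3a, Kmt2a and Kdm6a, are well known for roles in blood stem cells and leukaemia. PAR bZIP proteins bind DNA as dimers at palindromic sites of the TTACGTAA type.

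Baz1b had a peak over its annotated promoter. Its sequence is shown because no other gene with a listed promoter window had one touched by a peak. Windows were listed for 83 of the 106 genes, and for 17 of the 25 near a peak as defined below. The touched share was 1 of 114 windows (0.877%), against 0.691% of all 32851 windows. Baz1b (gene ID 22385) encodes WSTF, a bromodomain partner of the ISWI ATPase SMARCA5. The gene spans chromosome 5, 135187323 to 135246131, on the plus strand. Its peak (135186883 to 135187282) was centred 241 bp upstream of the transcription start. The RefSeq promoter table (GRCm38.p6) gives windows from 250 bases before to 50 bases after each start, and 210 bases of the Baz1b window lay inside the peak. The 250 bases before the start, chr5:135187073-135187322 on the plus strand, are printed 5′ to 3′ with the bases inside the peak in capitals.
Baz1b promoter: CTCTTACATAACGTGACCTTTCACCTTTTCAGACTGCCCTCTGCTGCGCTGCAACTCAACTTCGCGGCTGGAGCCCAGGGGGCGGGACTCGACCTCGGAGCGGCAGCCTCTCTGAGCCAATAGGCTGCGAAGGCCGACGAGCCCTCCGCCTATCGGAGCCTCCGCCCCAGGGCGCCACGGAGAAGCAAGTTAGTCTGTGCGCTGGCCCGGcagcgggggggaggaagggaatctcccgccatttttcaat

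The window holds the letters TTACATAA at 135187076 to 135187083, a match to the relaxed PAR bZIP pattern TTANGTAA read on either strand (TTACNTAA). The middle of this match lay 2 bp from the peak's centre. Of the 114 promoter windows listed for 83 of the genes, the Baz1b window alone held TTANGTAA, which is 0.877% (exact 95% interval 0.0222 to 4.79%), against 2.32% of all 32851 windows in the table and 8.81% of the 227 windows touched by any peak. In the 20 touched windows that held this pattern, its distance to the nearest peak centre ranged from 2 to 473 bp with a median of 41.5 bp, and the Baz1b match had the lowest of these distances. Windows share peaks where a gene has several starts or a neighbour nearby, and these shares are descriptions.

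A looser pattern that covers the former, TTACNNAA on either strand, was found in windows of Baz1b, Setd5, Hdac7 and Kdm3a (4 of 114 windows, 3.51%), against 9.18% of all windows and 32.2% of touched windows. The stretches before the start are shown for the first 3, with the 8 matching bases in capitals, to set the match under a peak beside matches that were not under one. All are from GRCm38.p6 and written 5′ to 3′ along the gene's strand (Baz1b, chr5:135187073-135187094, plus; Setd5, chr6:113104685-113104710, plus; Hdac7, chr15:97831864-97831893, minus).
Baz1b: ctcTTACATAAcgtgacctttc
Setd5: tttgcagTTTAGTAAgagaccctatc
Hdac7: agcaccctggcTTGTGTAAacatggatgca
The Kdm3a match lies after the start and is not shown. The Baz1b match lay within the peak. The Setd5 and Hdac7 matches were 26016 bp and 6784 bp from the nearest peak centre, although both genes had peaks elsewhere. Of further patterns, TTGCNNAA, a pattern of C/EBP type, was in 6.14% of the 114 windows, 10.8% of all and 30.4% of touched windows. The CRE palindrome TGACGTCA (0.877, 1.79 and 3.52%) and the AP-1 type TGANTCA (7.02, 7.81 and 6.17%) were also counted, in the same order of windows. The full palindrome TTACGTAA and the related TTACGCAA and TTGCGCAA were in none of the 114 windows, against 0.119%, 0.167% and 0.183% of all windows.

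The first question was how many of these genes lay near a site of FLAG-HLF. A gene was taken as near a peak if the centre of one fell between its ends or at most 20 kb beyond either end. Of the 106 genes, 25 were near a peak, or 23.6% (exact 95% interval 15.9 to 32.8%), against 15.3% of all protein-coding genes (3294 of 21523). Long genes reach more peaks by their size, and these genes were long, with a median of 46.2 kb against 17.4 kb for all genes. All genes were therefore sorted into 20 bins of equal number by length, and the share near a peak in each bin was averaged over the bins of the 106 genes. Genes of like length gave 20.6 genes, or 19.5%, and this number is called length-standardised below. The count of 25 was 1.21 times it (0.816 to 1.69), and the interval, which covers counting error over genes only, includes 1. No test was made, since there is 1 library and the list was chosen by family.

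**Figure D1:**
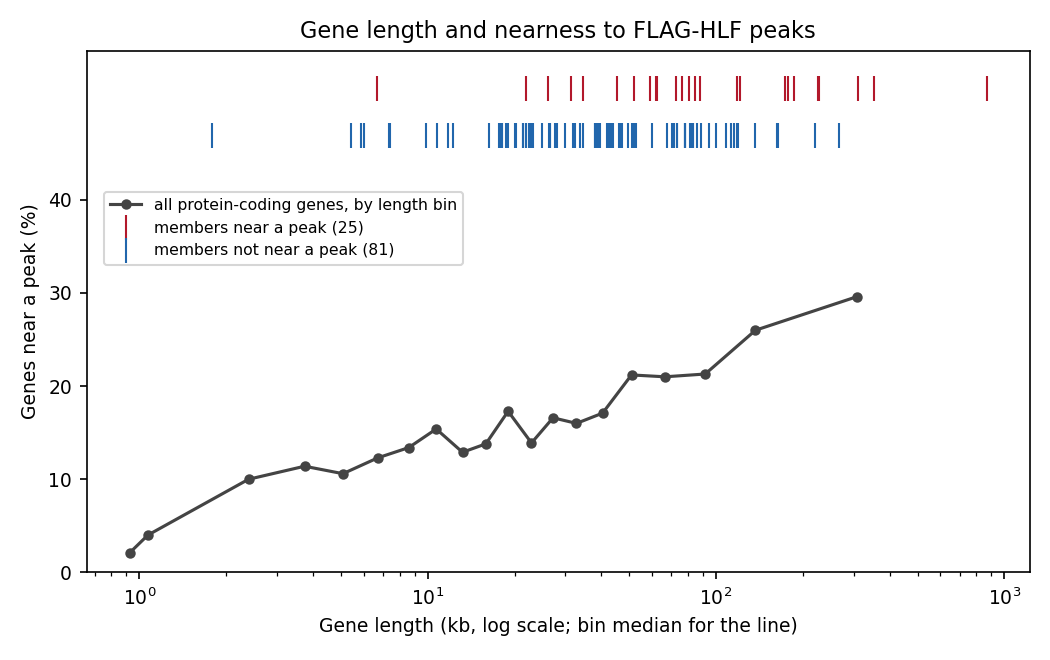
The line gives the percentage of all 21523 protein-coding genes near a FLAG-HLF peak (vertical axis) in each of 20 length bins, against the bin's median length in kb (log axis); the ticks above mark the length of each chromatin gene near (red, 25) or not near (blue, 81) a peak, and their height carries no value. The share is 2.09% in the shortest bin and 29.6% in the longest, and the red ticks lie mostly toward the long end.

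The genes near a peak were the longer ones of the set, with a median length of 80.5 kb against 38.9 kb for the other 81. In the 4 longest bins (58.0 kb or more), 18 of 45 genes were near a peak, or 40.0% (25.7 to 55.7%), against 24.5% of all genes in those bins. Among shorter genes, 7 of 61 were near, or 11.5% (4.74 to 22.2%), against 13.0%. This division by length was chosen after the values were seen.

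The 25 genes held 38 peaks, 1.21% of the list, and no peak was counted for more than 1 of them. A single peak was found at 18 genes, 2 peaks at Baz1a, Hdac7 and Hdac9, 3 at Arid2 and Chd9, and 4 at Arid1b and Baz2b. The 7 genes with several peaks were 6.60% of the set (2.70 to 13.1%), against 2.72% of all genes and a length-standardised 4.27 genes. The 38 peaks compare with a length-standardised 25.9. Peaks within a gene share their surroundings and are not independent, so no interval is given for that number.

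Of the 38 peaks, 26 were in a gene body, and 18 of these were over 20 kb from both ends, or 47.4% of the 38. These 18 peaks lay in 10 genes and are not independent, so no interval is given here either. Over all protein-coding genes, 18.1% of the 4005 pairs of a gene and a peak were of this kind, and genes of like length gave 6.65 such pairs. By genes rather than peaks, 10 of the 59 genes over 40 kb, which alone can hold such a peak, had at least 1, or 16.9% (8.44 to 29.0%), against 9.84% of the 5987 protein-coding genes of that size. The length-standardised number was 5.48 genes. The 10 were Arid1b, Arid2, Arid5b, Baz1a, Baz2b, Chd7, Chd9, Hdac7, Hdac9 and Kmt2c. The share of these genes is above that of all long genes, but its interval includes the latter. The other positions were close to the length-standardised numbers, with 7 peaks in the body at 1 to 20 kb from an end (6.74), 11 outside at 1 to 20 kb (10.4) and 2 within 1 kb of a gene end (2.07).

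**Figure D2:**
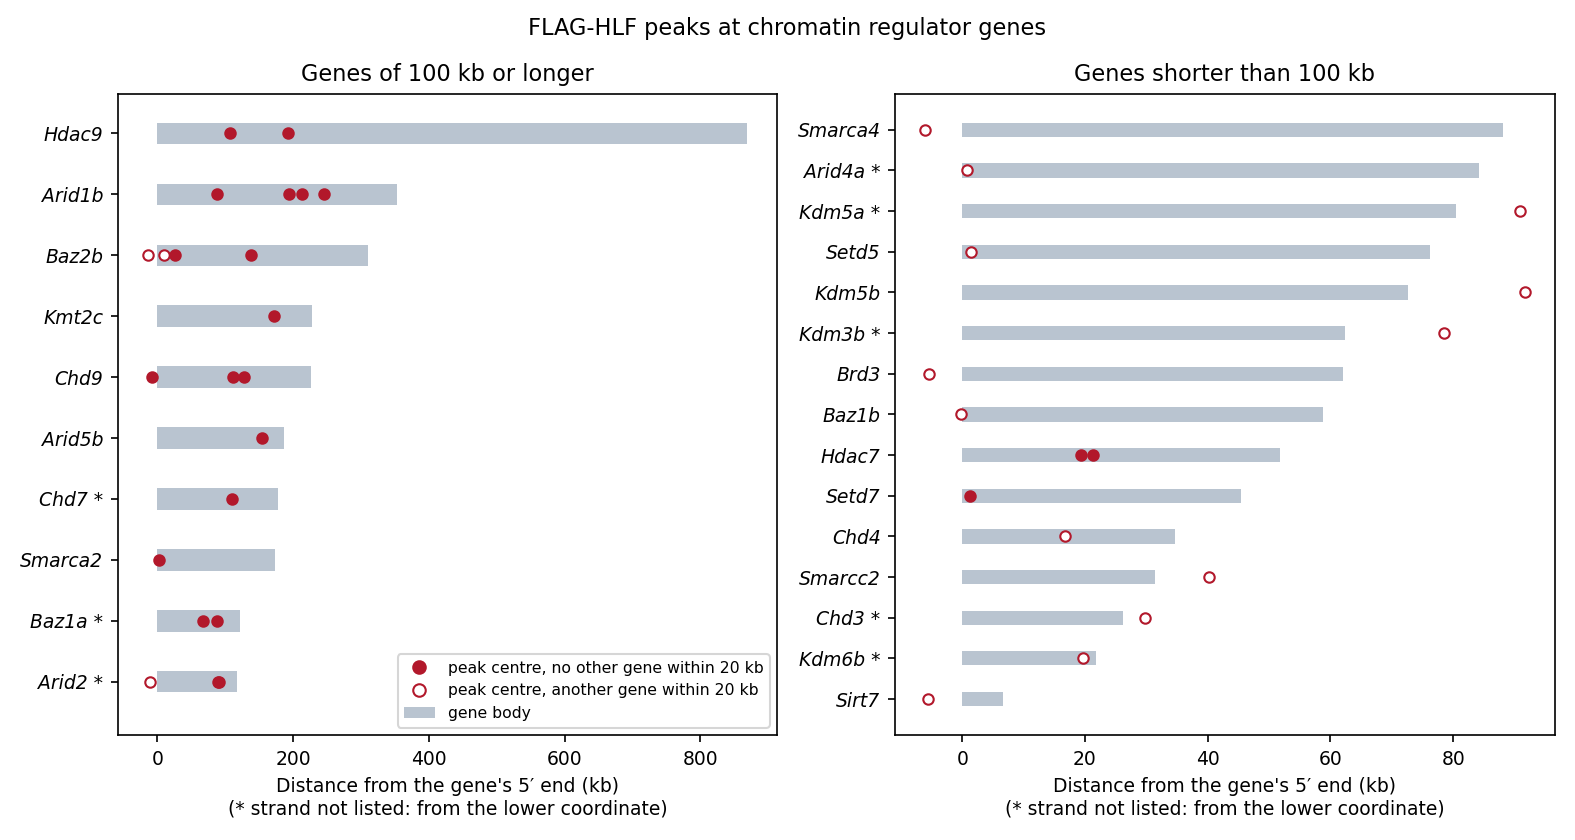
Each row is 1 of the 25 genes near a peak, with its body as a grey bar and peak centres as circles, placed by distance from the gene's 5′ end in kb (from the lower coordinate where marked with an asterisk, as the strand was not listed). Filled circles (22 peaks) have no other protein-coding gene within 20 kb and open circles (16 peaks) do; filled circles lie mainly inside long genes such as Arid1b and Hdac9, and the single one outside belongs to Chd9.

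Peaks were also counted by whether another gene was in reach. Of the 26 peaks in gene bodies, 21 had no other protein-coding gene in the body or within 20 kb, while this held for 1 of the 12 peaks outside. In all, 12 genes were near a peak that reached no other gene (11.3%, 5.99 to 18.9%, against 6.06% of all genes and a length-standardised 10.9 genes), and 13 were near only through peaks shared with neighbours. Most of the 12 were the long genes with inner peaks, and the shared peaks are named with their neighbours below.

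BAF, the SWI/SNF complex of mammals, is built on either of 2 ATPases, BRM and BRG1, and both genes were near a peak, against a length-standardised 0.473 genes. Smarca2, which encodes BRM (chromosome 19, 26605073 to 26778321, plus strand), had 1 peak at 26606504 to 26606903, centred 1.54 kb downstream of its listed start and reaching no other gene. Smarca4, which encodes BRG1 (chromosome 9, 21616106 to 21704230, plus strand), had 1 peak 6.13 kb upstream of its listed start, which also lay within 20 kb of Yipf2 and Timm29. Genes of the length of Smarca2 were near a peak in 26.0% of cases, and those of the length of Smarca4 in 21.3%.

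The ARID subunits that mark the BAF and PBAF forms of the complex gave 2 of 3 (66.7%, 9.43 to 99.2%; length-standardised 0.766). Arid1b (gene ID 239985; chromosome 17, 4994297 to 5347656, plus strand) had 4 peaks, all deep in its 353 kb body, at 86.4, 193, 212 and 244 kb downstream of its listed start. Neighbouring peaks were 106, 19.2 and 32.2 kb apart, and none reached another gene. Arid2 (gene ID 77044; chromosome 15, 96287522 to 96405463), a PBAF subunit, had 2 inner peaks with centres 1.09 kb apart, 29.0 and 27.9 kb from the higher-coordinate end, and 1 peak 11.5 kb outside the lower-coordinate end, which lay inside Gm38469. Arid1a, the paralogue of Arid1b, had no peak within 20 kb, and its nearest was 28.7 kb away. Of the 7 core and accessory subunits (Smarcb1, Smarcc1, Smarcc2, Smarcd1, Smarcd2, Smarcd3 and Smarce1), Smarcc2 alone was near a peak (1 of 7, length-standardised 1.12). That peak lay 8.81 kb outside the 3′ end of Smarcc2, 0.715 kb from Myl6b, 5.51 kb from Myl6 and 10.8 kb from Esyt1. The bromodomain subunit genes Brd7 and Brd9 had none (length-standardised 0.299). In total 5 of these 14 BAF subunit genes were near a peak (35.7%, 12.8 to 64.9%), against 15.3% of all genes and a length-standardised 2.66 genes, counted over subgroups that were drawn up with the results known.

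BAZ proteins are bromodomain partners that target ISWI ATPases, and 3 of their 4 genes were near a peak (75.0%, 19.4 to 99.4%), against a length-standardised 0.937 genes. Baz2b (gene ID 407823; chromosome 2, 59899363 to 60209913, minus strand) had 4 peaks. These were centred 138, 26.1 and 9.65 kb inside its 5′ end and 14.4 kb outside it. The last pair also reached Marchf7, and the outermost lay inside that gene. The start listed for Baz2b in the promoter table is an internal one, with the 3 peaks nearest the 5′ end 58.1 to 98.6 kb upstream of it. Baz1a, which encodes ACF1 (gene ID 217578; chromosome 12, 54892989 to 55014371), had 2 peaks inside its body, 54.6 and 33.2 kb from the higher-coordinate end, and neither reached another gene. Baz1b had the promoter peak printed above, which was also within 20 kb of Bcl7b. That neighbour encodes a BAF subunit and lay 5.23 kb from the peak centre. Baz2a, the fourth gene, had its nearest peak 370.1 kb away. The ISWI ATPase genes themselves, Smarca1 and Smarca5, had none within 20 kb.

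CHD remodellers gave 4 of 10 genes (40.0%, 12.2 to 73.8%; length-standardised 2.25). Chd3 and Chd4, alternative ATPases of the NuRD repressor complex, each had 1 peak, and their paralogue Chd5 had its nearest at 34.4 kb. The Chd4 peak was 16.6 kb downstream of the nearer of its 2 listed starts and within 20 kb of Nop2. The Chd3 peak was 3.52 kb outside the higher-coordinate end and 17.9 kb from Cyb5d1. Chd9 (gene ID 109151; chromosome 8, 90828302 to 91054516, plus strand) had 3 peaks that reached no other gene. One was 8.29 kb upstream of its first listed start, and the other two were 7.80 and 23.2 kb downstream of a second listed start inside the gene. Chd7, the gene of CHARGE syndrome, had 1 peak 68.7 kb inside. Chd1, Chd2, Chd6 and Chd8 had none within 20 kb, nor did the further SNF2 genes Chd1l, Smarcad1 and Smarcal1.

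**Figure D3:**
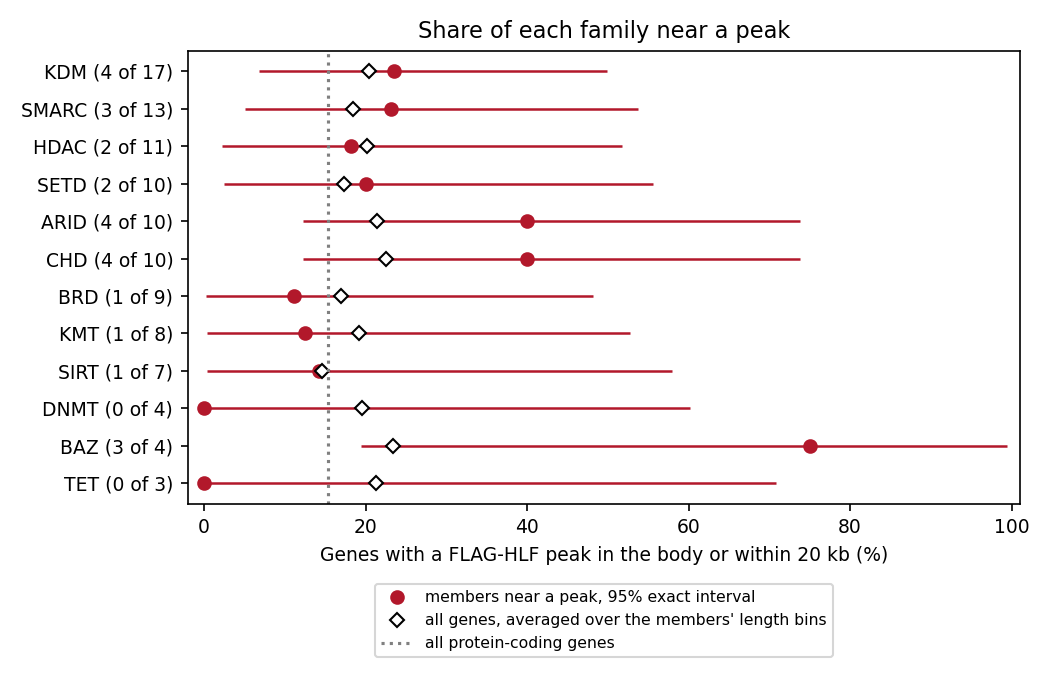
Red points give the percentage of each family's genes with a FLAG-HLF peak in the body or within 20 kb (horizontal axis), with exact 95% intervals as lines; diamonds give the length-standardised percentage and the dotted line the 15.3% of all protein-coding genes. BAZ, ARID and CHD stand highest at 75.0, 40.0 and 40.0%, TET and DNMT are at 0, and all 12 intervals include the diamond.

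Of the 7 other ARID genes, 2 were near a peak (28.6%, 3.67 to 71.0%; length-standardised 1.37). Arid4a, which encodes a partner of the retinoblastoma protein and the SIN3 complex (gene ID 238247; chromosome 12, 71015081 to 71099351), had 1 peak at 71015597 to 71015996, centred 0.715 kb inside its lower-coordinate end and 19.9 kb from Psma3. It and Baz1b were the 2 genes with a peak centre within 1 kb of a gene end (1.89%, against 1.76% of all genes). Arid5b had 1 peak deep in its 187 kb body, 32.7 kb from its 3′ end. Arid3a, Arid3b, Arid3c, Arid4b and Arid5a had none within 20 kb. The BRD genes gave 1 of 9 (11.1%, 0.281 to 48.2%; length-standardised 1.53). Of the BET genes, whose proteins bind acetylated histones and are the targets of BET inhibitors, Brd3 had 1 peak 5.34 kb outside its 5′ end. That peak was nearer to Wdr5, at 2.15 kb, which encodes a core subunit of the KMT2 complexes. Brd2 had its nearest peak at 164 kb.

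The KMT and SETD genes include the writers of histone methylation, though not every one is known to encode such an enzyme. Of these 18 genes, 3 were near a peak (16.7%, 3.58 to 41.4%), against 15.3% of all genes and a length-standardised 3.26. Setd7 (gene ID 73251; chromosome 3, 51515318 to 51560823, minus strand), which encodes an H3K4 monomethyltransferase, had 1 peak at 51559392 to 51559791, centred 1.23 kb downstream of its listed start with no other gene in reach. Setd5 had 1 peak 1.42 kb inside its 5′ end, 26.3 kb upstream of the internal start in the promoter table and 10.4 kb from Thumpd3. Kmt2c, which encodes the enhancer methyltransferase MLL3, had 1 peak in its 227 kb body, 55.2 kb from the 3′ end. Kmt2a, which encodes MLL1 and is rearranged in leukaemia, lay just outside the limit, with its nearest peak at 22.9 kb. The H3K9 enzymes Setdb1 and Setdb2, the H4K20 enzymes Kmt5a, Kmt5b and Kmt5c, and Setd2 had none within 20 kb.

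Of the erasers of histone methylation, 4 of 17 KDM genes were near a peak, each with 1 peak (23.5%, 6.81 to 49.9%; length-standardised 3.47). Kdm6b, which encodes the H3K27 demethylase JMJD3 (gene ID 216850; chromosome 11, 69398508 to 69420367), had the only one inside a body, 2.13 kb from its higher-coordinate end and 2.57 kb from Dnah2. The closest other gene of the set is Chd3, 29.0 kb away, with its own peak described above. Kdm6a, the X-linked paralogue, was 4506 kb from its nearest peak. The H3K4 demethylase genes Kdm5a and Kdm5b had peaks 10.4 and 19.0 kb outside, the latter inside Syt2 and the former 8.25 kb from Il17ra. Kdm3b, an H3K9 demethylase gene, had a peak 16.1 kb outside that was nearer to Egr1, at 5.75 kb, and to Reep2, at 8.00 kb. Kdm1a, which encodes LSD1, the target of inhibitors tried in leukaemia, was 304 kb from a peak, and none of Kdm2a, Kdm2b and Kdm8 was near one.

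Deacetylase genes gave 2 of 11 HDAC genes (18.2%, 2.28 to 51.8%; length-standardised 2.22) and 1 of 7 sirtuins (14.3%, 0.361 to 57.9%; length-standardised 1.02). Both HDAC genes encode class IIa enzymes, which bind MEF2 factors. That class gave 2 of 4 genes (50.0%, 6.76 to 93.2%), against a length-standardised 0.964 genes. Its genes had a median length of 159 kb, against 27.1 kb for class I. Hdac7 (gene ID 56233; chromosome 15, 97792661 to 97844502, minus strand) had 2 peaks 1.98 kb apart inside the gene, 19.4 and 21.4 kb from its 5′ end, with no other gene in reach. The promoter table lists several starts for Hdac7, and these peaks lay 6.40 kb downstream of one and 8.25 kb upstream of another. Hdac9 (gene ID 79221; chromosome 12, 34047580 to 34917095, minus strand), at 869.5 kb the longest gene of the set, had 2 inner peaks, 107 and 193 kb downstream of its start. Of the other class IIa genes, Hdac4 had its nearest peak at 32.7 kb and Hdac5 at 163 kb. None of the 4 class I genes was near a peak, with distances of 326 kb for Hdac1, 262 kb for Hdac2, 53.3 kb for Hdac3 and 515 kb for the X-linked Hdac8. The length-standardised number for these 4 was 0.802 genes. The Sirt7 peak was 5.58 kb upstream of its start and inside Mafg, which encodes a small MAF bZIP protein, with Pcyt2, Pycr1 and Myadml2 also in reach.

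No gene of DNA methylation or its oxidation was near a peak. For Tet1, Tet2 and Tet3 the nearest peaks were 57.9, 40.4 and 304 kb away. For Dnmt1, Dnmt3a, Dnmt3b and Dnmt3l they were 169, 140.1, 298 and 33.2 kb away. The exact 95% intervals for 0 of 3 and 0 of 4 reach 70.8 and 60.2%, and genes of like length gave 0.638 and 0.782 genes, so a lower share than elsewhere was not detectable with so few genes.

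Over the whole set, the 81 genes without a peak in reach had their nearest one at a median of 217 kb (21.5 to 5707 kb), and for all protein-coding genes without a peak the median was 246 kb. Just outside the limit lay Hdac10 at 21.5 kb, Kmt2a at 22.9 kb and Arid1a at 28.7 kb, and just inside it Kdm5b at 19.0 kb and Kdm3b at 16.1 kb. All 5 genes on X were without a peak, on a chromosome that holds 25 of the 3153 peaks. Of all protein-coding genes 15.3% were near a peak, and 15.9% when X was left out, so genes on X were less often near one than genes elsewhere.

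**Figure D4:**
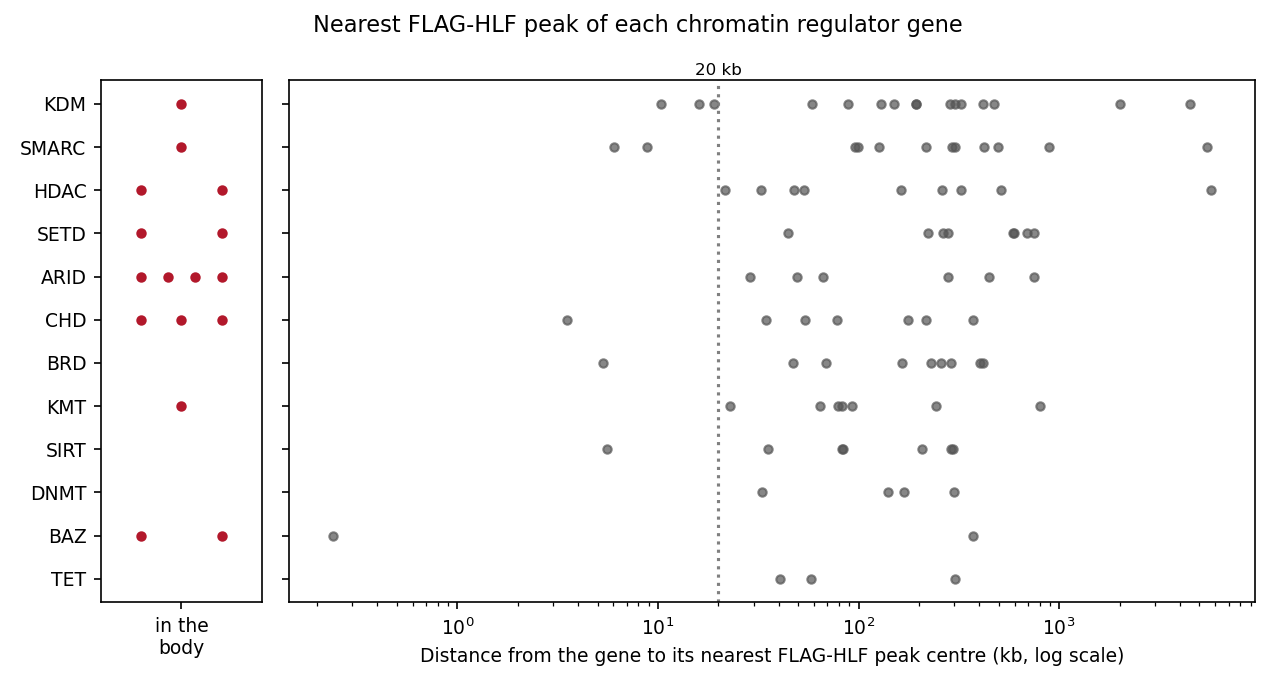
Each point is 1 of the 106 genes, by family (rows), at the distance in kb (log axis) from the gene to its nearest FLAG-HLF peak centre; the 16 genes with a peak in the body are drawn in the left panel, where horizontal position carries no value, and the dotted line marks 20 kb. The 9 points left of the line are near a peak outside the gene only, TET and DNMT have no point left of it, and the 3 farthest points are the X-linked Hdac6, Smarca1 and Kdm6a.

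The count depended on the definition of nearness. Peak centres lay in the body of 16 genes (15.1%, against 6.94% of all genes; length-standardised 11.9) and in the body or within 5 kb of 18 (17.0%, against 9.58%; 14.6). Within 10 kb there were 22 (20.8%, against 11.6%; 16.6) and within 50 kb 37 (34.9%, against 24.6%; 30.3). With every peak assigned to a single gene, that of the nearest end up to 100 kb away, 21 genes received one (19.8%, against 11.0%; 16.7). The ratio to the length-standardised number ran from 0.976 at gene ends within 1 kb to 1.34 in the gene body, and the interval of each included 1. These intervals are wide (0.119 to 3.44 at gene ends), so they cannot show whether the ratio changed with the definition. Of the 83 genes with a listed transcription start, Baz1b, Setd7 and Smarca2 had a peak centre within 5 kb of one, or 3.61% (0.752 to 10.2%), against 4.10% of the 17274 protein-coding genes with a listed start.

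Other chromatin genes that do not match the symbol rule, some of them partners of these proteins, were counted in the same way. They came from a list of 104 genes drawn up with earlier results of these data known, so their share is only a description. Wdr5 and Bcl7b were counted through the peaks already given for Brd3 and Baz1b. Of these, 32 were near a peak, or 30.8% (22.1 to 40.6%), against 15.3% of all genes and a length-standardised 19.4 genes. Acetyltransferase genes gave 5 of 13 (length-standardised 2.74), namely Kat2a, Kat2b, Kat7, Ncoa2 and Ncoa3, and 4 of these (all but Ncoa2) had 2 peaks. Kat2a and Kat2b encode GCN5 and PCAF, which acetylate histone H3. Polycomb genes gave 8 of 27 (4.65), and the peaks nearest to a gene were those 0.237 kb from Pcgf2 and 0.338 kb from Yaf2, both of which encode subunits of PRC1 complexes. KMT2 and COMPASS partners gave 3 of 8 (1.31), among them Ash2l with 2 peaks, the nearer 0.883 kb away. NuRD, SIN3 and CoREST partners gave 5 of 16 (3.09), of which Sin3a had its peak in the body. PR-DUB gave 1 of 4 (0.817), Asxl1, which also had its peak in the body and is often mutated in myeloid disease. Further methyltransferase genes gave 4 of 15 (2.95) and BAF and INO80 partners 6 of 21 (3.83). The difference between these other chromatin genes and the 106 genes was not tested.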

How the data were processed

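Peaks of 1 anti-FLAG ChIP-seq library (FLAG-HLF) were used. The deposited file has 3 columns, chromosome, start and end, and the authors give no height, score or p-value. The submitters' processing notes name Bowtie2 2.0.6, MACS2 2.0.10 and mm10. How peaks were thresholded, whether the control entered the calling and how every peak came to 400 bp is not given in the sources used here, and these choices decide which weak sites are listed. A peak's position was its start plus 200 bp.

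Gene positions came from the RefSeq GRCm38.p6 table, with genes starting below 3 Mb left out as scaffold coordinates. Strand, starts and promoter sequence came from the RefSeq promoter table. Exons, introns and UTRs were not assigned. Symbols decided membership, but the families and lists were chosen with earlier results of these data known. The rule named every gene near a peak, families of 5 or fewer genes and a fixed set of blood regulators, 1 of which is not reported here. Other genes without a peak were named after their values were seen, to complete subgroups or give distances. Intervals given with shares are exact Clopper-Pearson 95% intervals. The length-standardised number is an average over 20 length bins. Its calculation was tested on peaks placed evenly at random and a random list of genes, which does not cover a list of long genes such as this one. A total of 8 sequence patterns were searched on both strands. Python 3.11.15, pandas 2.3.3, numpy 2.4.6 and scipy 1.17.1 were used.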

Additional observations from a re-analysis of the deposited data

How the results depend on the processing

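The count of 25 genes near a peak was within 1.5 times under windows of 5, 10 and 50 kb, with any peak base in reach, with peaks merged, by the nearest gene end and without Brd3os and Brd8dc. It was 16 with the gene body alone, 2 at gene ends within 1 kb, 12 with peaks that reach no other gene and 3 near listed starts, since each of these reaches less sequence or fewer genes by construction. The other chromatin genes went from 32 to 14, 5 and 11 under the first 3 of these. The ratio to the length-standardised number was 1.24 without chromosome X, 1.18 without olfactory, vomeronasal and trace amine receptor genes and those named only by a Gm or Rik symbol, and 1.12 when genes were also matched on the number of genes within 100 kb. Under every alternative run the ratio stayed inside the interval of the main value (0.816 to 1.69). Matching on body length gives the same bins as region length by construction. The list without Brd3os and Brd8dc and the count at listed starts were chosen after the data were seen. Depth is unknown, so a missing peak does not show a site to be unbound, and peaks of 1 library have no replicate check. No paired analysis was possible because a single library was used.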
